A study of Homo sapiens with 4 samples.

Results

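The 10 genes described here encode PRSS56 and a group of serine proteases set beside it, namely PRSS23, PRSS8, PRSS3, PRSS12, PRSS22, PLAU, ST14, HTRA1 and FURIN. They were found by symbol in a table of 16658 genes, in which all 10 were listed. PRSS56 was chosen by its fall between the same WT and ZCCHC4 KO1 libraries that are compared here, and the other nine were picked as serine protease genes with earlier results of these data known. Differences of the 10 genes between the groups are therefore given as a description, with standard errors and without p-values, and counts of calls among them are read as nothing more.

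The cells carry the label HepG2, the name of a line grown from a tumor of the human liver, and were sequenced untreated, as wild-type cells (WT, 2 libraries) and after CRISPR/Cas9 knockout of ZCCHC4 (ZCCHC4 KO1, 2 libraries). ZCCHC4 KO1 is 1 knockout line, so that effects of the knockout and of the line cannot be told apart, and the labels do not say whether the libraries of a group came from separate cultures, so the spread between them may be technical and p-values measure no more than that spread. Expression was deposited as FPKM, in which fragments are scaled by transcript length and library size, and the depth of the libraries is unknown. ZCCHC4, which encodes a methyltransferase of ribosomal RNA, was at 7.22 and 5.44 FPKM in WT and at 1.08 and 2.29 FPKM in ZCCHC4 KO1 (log2 difference -1.48, standard error 0.287, adjusted p = 0.0448 from limma), a call kept under 7 of 10 alternative fits. Of 18 hepatocyte markers, 11 were listed, and only VTN was at an FPKM above 1 in WT. AFP was at 0 and 0.05 FPKM there, so that the label HepG2 was not borne out by these markers. Replicates differed along the GC content of transcripts. Over 10559 genes, which are not independent, replicate 2 minus replicate 1 correlated with GC content at a Spearman value of 0.725 for WT and -0.784 for ZCCHC4 KO1. In bulk RNA, fewer cells that express a gene and less RNA per cell cannot be told apart.

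Serine proteases cut peptide bonds with a reactive serine that is activated by a histidine and an aspartate. Most trypsin-like proteases are made as inactive zymogens, are switched on by a cut after a basic residue, and are held in check by serpins and by Kunitz and Kazal inhibitors. In epithelia they form cascades at the cell surface, such as that of matriptase (ST14) and prostasin (PRSS8), while urokinase (PLAU) activates plasminogen beside its receptor. PRSS56 is a secreted trypsin-like protease studied mainly in the retina, where it is needed for normal growth of the eye. FURIN is a proprotein convertase of the subtilisin family, which reached the same catalytic residues on an unrelated fold, so the 10 genes are not all trypsin-like.

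The coding sequence around the reactive serine shows this division, and it is printed for the genes in which a search of the translated GENCODE v44 canonical transcripts found it. In trypsin-fold proteases the serine was sought after glycine and aspartate, or glycine and asparagine, and before a pair of glycines, and this pattern was present in 0.689% of 20457 canonical coding transcripts and in 85 of 100 other trypsin-fold proteases. PRSS56, PLAU, ST14, PRSS8, PRSS22, PRSS12 and HTRA1 each held it once. PRSS3, mesotrypsin, was found without the leading glycine, and mesotrypsin is known for an arginine at that place and for its resistance to trypsin inhibitors. No match was found in PRSS23, for which no sequence is shown. FURIN was searched with the subtilisin pattern of glycine, threonine, serine and alanine, present in 1.07% of the transcripts. The lines give 27 bases of each transcript in the sense direction, 5′ to 3′, with the codon of the serine in capitals.

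PRSS56: tgccagggtgacTCGggaggccccctg
PLAU: tgccagggagacTCAgggggacccctc
ST14: tgccagggtgatTCCgggggacccctg
PRSS8: tgccagggtgacTCTgggggcccactc
PRSS22: tgtctgggcgacTCCgggggccccctc
PRSS12: tgccagggagacAGCggaggaccactc
PRSS3: tgccagcgtgacTCTggtggccctgtg
HTRA1: aactatggaaacTCGggaggcccgtta
FURIN: cacacgggcaccTCAgcctctgccccc

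The stretch of PRSS56 lies on the plus strand of GRCh38 and is joined from exons 7 and 8, at chr2:232523197-232523436 with the intron between them. That of PRSS12 lies in the last of 13 exons on the minus strand, at chr4:118282077-118282103, and that of FURIN in exon 10 on the plus strand, at chr15:90879480-90879506. In HTRA1 it is joined from exons 4 and 5 on the plus strand, at chr10:122506883-122507393. In PRSS3 it is joined from exons 4 and 5 on the plus strand, at chr9:33798617-33799048, in PLAU from exons 10 and 11 on the plus strand, at chr10:73915394-73916409, and in ST14 from exons 18 and 19 on the plus strand, at chr11:130209573-130209682. PRSS8 and PRSS22 are on the minus strand, with the stretch joined from exons 5 and 6 at chr16:31132315-31132434 and at chr16:2853309-2853870. Both serine codon families occur, with AGC in PRSS12 and TCN in the other eight.

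PRSS56 dominated the group in WT cells and was nearly lost from ZCCHC4 KO1 cells. The gene, with Entrez identifier 646960, occupies positions 232520388 to 232525716 of chromosome 2 in GRCh38, plus strand, and no other GENCODE gene overlaps it. Its level was 341.66 and 376.05 FPKM in WT against 1.96 and 2.03 FPKM in ZCCHC4 KO1. Both ZCCHC4 KO1 libraries lay far below both WT libraries, and the replicates of each group were close to each other. The mean was 358.9 ± 24.3 FPKM (SD, n = 2) in WT and 1.995 ± 0.0495 FPKM (SD, n = 2) in ZCCHC4 KO1, which is 179.9-fold lower, and the fold ranged from 168.3 to 191.9 over the 4 pairs of a WT and a ZCCHC4 KO1 library. On the log2(FPKM + 1) scale, which understates changes at low values, the difference of ZCCHC4 KO1 minus WT was -6.91 (standard error 0.139 from limma), and -7.42 with a pseudocount of 0.1.

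Among all listed genes, PRSS56 ranked 211 and 200 by FPKM in WT but 9034 and 9494 in ZCCHC4 KO1. It thus went from the most abundant transcripts of these cells to the middle of the table. With a pseudocount of 1, no tested gene had a more negative log2 difference, and the next, SPINK6, was at -5.86. With one of 0.1, SPINK6 at -7.89 and CXCR4 at -7.46 were below PRSS56 at -7.42. Of 202 tested genes with a WT mean at least as high as that of PRSS56, 4 had a log2 difference of -1 or below, the lowest being MT2A, named after its values were seen, at -3.02. The 10 genes of the group summed to 483.68 and 525.32 FPKM in WT, of which PRSS56 made up 70.6% and 71.6%. In ZCCHC4 KO1 they summed to 83.1 and 81.45 FPKM, with 2.36% and 2.49% from PRSS56. Without PRSS56 the sum was 142.02 and 149.27 FPKM in WT and 81.14 and 79.42 FPKM in ZCCHC4 KO1, so that the remaining proteases together were also lower in both ZCCHC4 KO1 libraries.

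**Figure D1:**
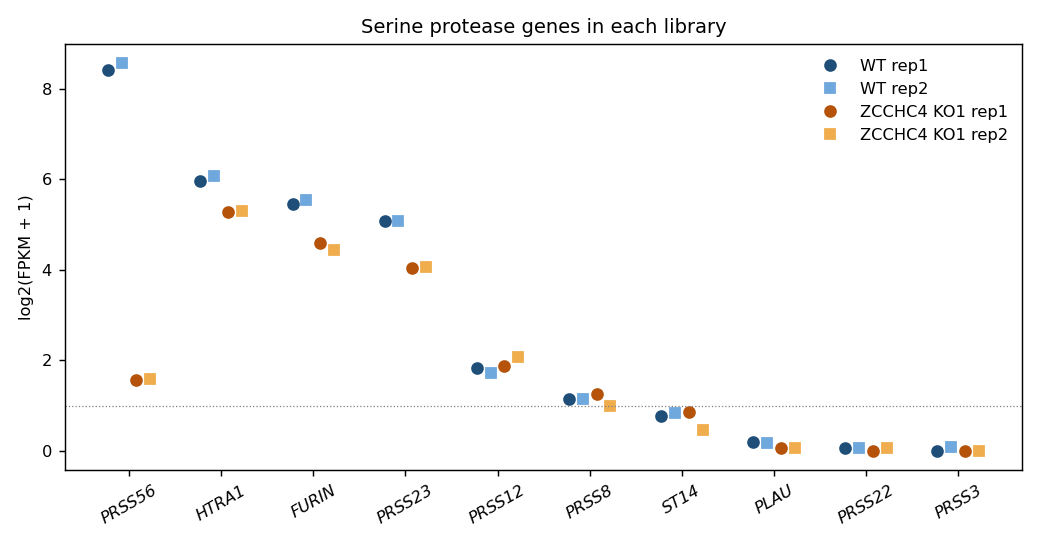
Level of the 10 serine protease genes, as log2(FPKM + 1), in each of the 4 libraries, with 1 point per library and genes ordered by their mean in WT. The dotted line marks an FPKM of 1. PRSS56 stands at 341.66 and 376.05 FPKM in WT and at 1.96 and 2.03 FPKM in ZCCHC4 KO1, HTRA1, FURIN and PRSS23 are lower by a smaller amount, and ST14, PLAU, PRSS22 and PRSS3 are below an FPKM of 1 in every library.

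HTRA1, FURIN and PRSS23 were the other well expressed proteases, and all 3 were lower in ZCCHC4 KO1 by 1.68- to 2.11-fold. HTRA1 encodes a secreted protease of the extracellular matrix, known for its effect on TGF-β signaling, and lies on chromosome 10 from 122461553 to 122514907 in RefSeq. It was at 61.77 and 66.16 FPKM in WT and at 37.82 and 38.4 FPKM in ZCCHC4 KO1. The groups did not overlap, and the WT mean was 1.68-fold that of ZCCHC4 KO1, a log2 difference of -0.73 (standard error 0.128). FURIN, on chromosome 15 from 90868588 to 90883457 in RefSeq, cleaves precursors of growth factors, receptors and metalloproteinases in the Golgi. It was at 42.89 and 45.72 FPKM in WT and at 23.01 and 20.72 FPKM in ZCCHC4 KO1. The groups again did not overlap, with a 2.03-fold ratio of means and a log2 difference of -0.99 (standard error 0.142).

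PRSS23, a secreted protease whose substrates are little known, lies on chromosome 11 from 86791071 to 86952910. Its level was 32.71 and 32.83 FPKM in WT and 15.39 and 15.66 FPKM in ZCCHC4 KO1. Replicates were nearly equal and the groups were clearly apart, with a 2.11-fold ratio of means and a log2 difference of -1.03 (standard error 0.141). The coding gene FZD4 overlaps PRSS23 on the opposite strand in GENCODE, and whether the reads were counted by strand is not given in the sources used here, so reads of the overlapping part cannot be told apart. The transcripts of the 4 genes differed in GC content, with 42.0% in PRSS23, 58.1% in HTRA1, 62.0% in FURIN and 69.0% in PRSS56. With the trend on GC content removed from each library, the log2 differences were -0.91, -0.83, -1.12 and -7.07 in the same order.

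**Figure D2:**
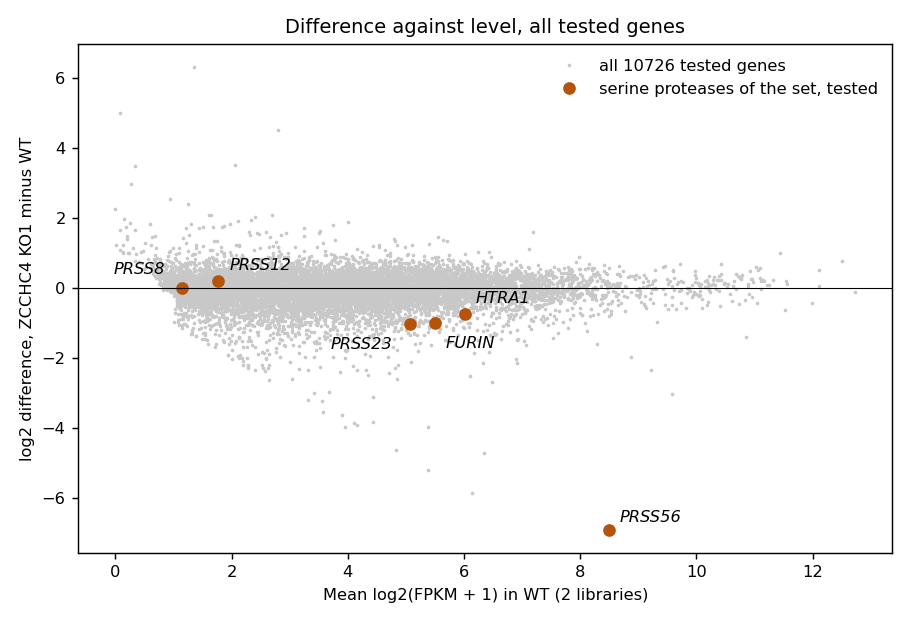
Log2 difference of ZCCHC4 KO1 minus WT against the mean log2(FPKM + 1) of the 2 WT libraries, with 1 grey point for each of 10726 tested genes and orange points for the 6 tested serine proteases of the group. PRSS56 stands alone at the bottom right at -6.91, PRSS23, FURIN and HTRA1 lie at -1.03, -0.99 and -0.73, and PRSS8 and PRSS12 lie within the bulk of the genes.

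PRSS12 and PRSS8 were expressed at low levels that barely differed between the groups. PRSS12 encodes neurotrypsin, a mosaic protease that cleaves agrin at synapses. It was at 2.54 and 2.29 FPKM in WT and at 2.66 and 3.19 FPKM in ZCCHC4 KO1. Both ZCCHC4 KO1 libraries were above both WT libraries, but the log2 difference of 0.20 was close to its standard error of 0.193. The noncoding gene SNHG8 overlaps PRSS12 on the opposite strand in GENCODE, so the limit given for PRSS23 holds here too. Noncoding genes on the opposite strand also overlap PRSS8, HTRA1, PLAU, PRSS3 and PRSS22. PRSS8 encodes prostasin, a membrane-anchored protease that raises the activity of the epithelial sodium channel. Its level was 1.2 and 1.23 FPKM in WT and 1.41 and 1 FPKM in ZCCHC4 KO1, so that the WT values lay between the ZCCHC4 KO1 values. The log2 difference of PRSS8 was -0.01 (standard error 0.185).

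The other four genes did not reach an FPKM of 1 in any library and were not tested. ST14 encodes matriptase, the membrane protease that acts together with prostasin. It was at 0.72 and 0.8 FPKM in WT and at 0.81 and 0.37 FPKM in ZCCHC4 KO1, with overlapping groups. PLAU encodes urokinase, which turns plasminogen into plasmin. It was at 0.15 and 0.13 FPKM in WT and at 0.04 FPKM in both ZCCHC4 KO1 libraries. The groups of PLAU did not overlap, but the number of fragments behind values this low is unknown. PRSS22, a tryptase that can activate pro-urokinase, was at 0.04 FPKM in 3 libraries and listed at 0 in ZCCHC4 KO1 replicate 1. PRSS3 was at 0.07 FPKM in WT replicate 2 and listed at 0 in the other 3 libraries. PRSS3 has near-identical trypsinogen copies such as PRSS1 and PRSS2, which were not found by symbol among the listed genes, so its value is uncertain.

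In order of mean level, WT cells had PRSS56 first, followed by HTRA1, FURIN, PRSS23, PRSS12, PRSS8, ST14, PLAU, PRSS22 and PRSS3. Neighbors in this order did not overlap between their 2 WT libraries, except PRSS22 and PRSS3, where 1 PRSS3 library was at 0 and the other above PRSS22. In ZCCHC4 KO1 the order was HTRA1, FURIN, PRSS23, PRSS12, PRSS56, PRSS8, ST14 and PLAU, with PRSS22 and PRSS3 last. PRSS56 thus moved behind 4 proteases, between PRSS12 and PRSS8. The ranges of PLAU and PRSS22 touched at 0.04 FPKM in ZCCHC4 KO1.

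Of the 10 genes, 6 had an FPKM of 1 or more in at least 2 libraries and entered the fit over all 10726 such genes. A gene was called at an adjusted p under 0.05 from limma with Benjamini-Hochberg adjustment and a log2 difference of at least 1 in either direction. By this rule 2 of the 6, PRSS56 and PRSS23, were among the genes called lower, a count that the choice of the genes could set, against 3.25% of all tested genes, and 0 were called higher, against 0.932%. FURIN and HTRA1 missed the fold. The call of PRSS23 was lost under median-ratio scaling, with the GC trend removed and without either WT library, and FURIN was called with a pseudocount of 0.1, with the GC trend removed and without ZCCHC4 KO1 replicate 1. In 4 of the 6 both ZCCHC4 KO1 libraries lay below both WT libraries, against 28.5% of all tested genes, and in 1, PRSS12, both lay above, against 23.1%. The median log2 difference was -0.86 over the 6 genes and -0.03 over all tested genes. Since this contrast chose PRSS56 and was known when the others were picked, nothing further is read from these counts.

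PRSS56 was not alone at its locus. It lies beside the alkaline phosphatase genes of chromosome 2, and of the 5 tested genes nearest to it on each side, 5 were higher and 5 lower, with a median log2 difference of 0.02. CHRND, the delta subunit of the muscle acetylcholine receptor, starts 0.444 kb beyond the end of PRSS56 on the same strand. It was at 2.57 and 3.07 FPKM in WT and at 0.04 and 0 FPKM in ZCCHC4 KO1, and it fell by 1.90 on the log2 scale (standard error 0.173, adjusted p = 0.00708 from limma). ALPI, the intestinal alkaline phosphatase, ends 59.6 kb before PRSS56. It was at 16.04 and 17.66 FPKM in WT and at 0.14 and 0.24 FPKM in ZCCHC4 KO1, and it fell by 3.91 (standard error 0.192, adjusted p = 0.0013 from limma). Both genes thus shared the direction of PRSS56 with groups far apart, and both were called lower under all 10 alternative fits.

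Of the further phosphatase genes of the locus, ALPG moved the other way and ALPP did not pass the test. ALPG, 109.7 kb before PRSS56, was at 2.18 and 2.32 FPKM in WT and at 7.8 and 6.84 FPKM in ZCCHC4 KO1, and it rose by 1.35 (standard error 0.192, adjusted p = 0.0198 from limma). This call was not kept without a filter on low values or without WT replicate 1. ALPP, the placental alkaline phosphatase, 137.5 kb before PRSS56, was at 642.18 and 737.44 FPKM in WT and at 1114.57 and 972.1 FPKM in ZCCHC4 KO1, a log2 difference of 0.60 (standard error 0.166, adjusted p = 0.102 from limma). ALPG and ALPP are near-identical copies, between which reads could be divided differently. EIF4E2, 25.0 kb beyond PRSS56, was at 67.92 and 74.5 FPKM in WT and at 76.08 and 62.68 FPKM in ZCCHC4 KO1, with overlapping groups. TIGD1, EFHD1, COPS7B, DIS3L2 and GIGYF2, the remaining tested neighbors, had log2 differences from -0.55 to 0.46 and none was called. TIGD1 and EFHD1, 18.2 and 80.3 kb beyond PRSS56, had both ZCCHC4 KO1 libraries below both WT libraries, at -0.53 and -0.55. COPS7B and DIS3L2 had them above, at 0.46 and 0.30, and the groups of GIGYF2 overlapped. ECEL1, the only other listed gene within 100 kb, was at 0.05 FPKM or less in all 4 libraries. By position, the tested genes within 100 kb of PRSS56 all had log2 differences below 0, though that of EIF4E2 was only -0.04. Those with log2 differences above 0 lay 109.7 kb or farther away. This order was seen in the values, and the part of copy number or of shared regulation was not tested.

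**Figure D3:**
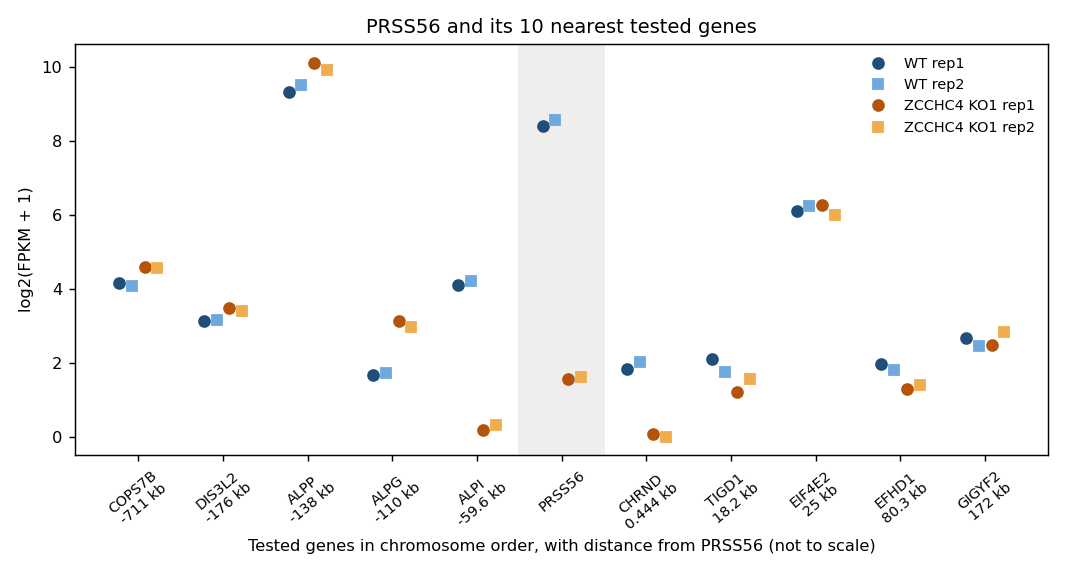
Level, as log2(FPKM + 1), of PRSS56 (grey band) and the 5 tested genes on each side of it in chromosome order, with 1 point per library and the distance from PRSS56 in kb under each name. ALPI, PRSS56 and CHRND have both ZCCHC4 KO1 libraries far below both WT libraries, ALPG and ALPP have them above, and EIF4E2, at 62.68 to 76.08 FPKM, overlaps between the groups.

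Around the other proteases, with 10 tested neighbors each, 1 neighbor was called. Of all tested genes, 3.25% were called lower and 0.932% higher. The farthest of the 10 neighbors lay from 249.5 kb away at PRSS22 to 15440 kb at PRSS8, and 711.1 kb away at PRSS56. It was 6526 kb away at PRSS23, 6007 kb at PRSS12 and 4014 kb at ST14. The medians therefore do not cover like distances. The median log2 difference of the 10 nearest tested genes was -0.05 for PRSS23, -0.06 for HTRA1 and -0.29 for FURIN, with 0 of 10 neighbors called in either direction at each of the 3 genes. PRSS22 had the most positive median, 0.32, and PLAU and ST14 had medians of -0.20 and -0.19. At PRSS8, PRSS12 and PRSS3 the medians were -0.00147, -0.05 and 0.05. The neighbor called was TGFB1I1, lower and at 336.4 kb from PRSS8, named after its values were seen.

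The annotated starts of the proteases differed in CpG content, also within a gene. RefSeq promoter windows of GRCh38.p14, from 250 bases before to 50 bases after each annotated start, were found for 7 of the 10 genes, with 13 windows in all, and PRSS8, PRSS22 and ST14 had none. The windows of PRSS56 held 5 and 7 CpG dinucleotides, against a median of 14 over all 35116 windows, 45 in HTRA1, 2 and 40 in PRSS23 and 3, 8, 37 and 44 in FURIN. PRSS23 and FURIN thus had starts as poor in CpG as those of PRSS56 beside rich ones, and which start was used is not known from these files. The letters TATAAA were found on either strand in 3 of the 13 windows, both of PRSS56 and 1 of FURIN, and in 11.5% of all windows. The windows of PRSS56 overlap and hold the same TATAAA, so by gene the letters were found in 2 of 7. They began 30 bases before the first annotated start of PRSS56 and 28 bases before that of FURIN, in its window with 3 CpG dinucleotides. GC boxes, searched as GGGCGG on both strands, were found in 7 of the 13 windows, none of them of PRSS56, and in 45.0% of all windows. The letters CCAAT were found on either strand in 4 of the 13 windows and in 34.6% of all windows. CACGTG, searched as an E-box, and TGACTCA, searched as an AP-1 motif, were in 0 of the 13 windows, against 7.26% and 4.95% of all windows. A match of letters is a description and not a site of binding.

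The window of PRSS56 on the plus strand at chr2:232520138-232520437 is shown with TATAAA in capitals, beside that of HTRA1 on the plus strand at chr10:122461303-122461602 with GC boxes, of which a pair overlaps, and CCAAT in capitals.

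PRSS56: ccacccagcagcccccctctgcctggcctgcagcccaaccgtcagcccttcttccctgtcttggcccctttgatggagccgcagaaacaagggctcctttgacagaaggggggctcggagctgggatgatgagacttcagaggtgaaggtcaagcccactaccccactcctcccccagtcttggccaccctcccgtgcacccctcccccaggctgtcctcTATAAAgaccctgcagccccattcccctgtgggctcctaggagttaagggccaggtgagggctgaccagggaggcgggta
HTRA1: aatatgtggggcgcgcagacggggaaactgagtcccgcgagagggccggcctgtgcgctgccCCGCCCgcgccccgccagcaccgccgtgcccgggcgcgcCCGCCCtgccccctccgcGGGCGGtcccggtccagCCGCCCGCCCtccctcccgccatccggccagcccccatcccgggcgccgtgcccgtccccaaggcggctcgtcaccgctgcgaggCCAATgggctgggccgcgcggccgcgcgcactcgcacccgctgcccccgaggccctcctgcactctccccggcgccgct

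The tested genes whose profile over the 4 libraries lay nearest to that of PRSS56, by Euclidean distance of centered log2(FPKM + 1) values, were SPINK6, CXCR4, SLC38A5, SLC2A3 and INSL4, at distances of 1.07, 1.72, 2.18, 2.29 and 2.93. They lie on chromosomes 5, 2, X, 12 and 9. SPINK6, a Kazal inhibitor of kallikreins, was at 64.24 and 75.98 FPKM in WT and at 0.09 and 0.36 FPKM in ZCCHC4 KO1. INSL4, a relaxin-like hormone of the placenta, was at 39.21 and 42.63 FPKM in WT and at 1.9 and 1.41 FPKM in ZCCHC4 KO1. With 2 libraries a group, this measure favors genes with a large difference and close replicates.

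No other tested trypsin-fold protease had a difference of the size seen for PRSS56. A list of 100 further trypsin-fold proteases had 57 genes in the table and 15 tested, of which 1 was called lower, 1 higher and 13 neither, with a median log2 difference of -0.19. Of all tested genes 3.25% were called lower and 0.932% higher. At an unadjusted p under 0.05 from limma, 6 of the 15 were lower and 3 higher, against 13.9% and 8.96% of all tested genes. TMPRSS3, a membrane protease of the inner ear, was at 23.29 and 22.92 FPKM in WT and at 10.75 and 9.24 FPKM in ZCCHC4 KO1, and it fell by 1.14 (standard error 0.164, adjusted p = 0.0208 from limma). CTRL, a chymotrypsin-like protease of the pancreas, rose from 2.5 and 1.75 FPKM to 6.12 and 5.11 FPKM, a log2 difference of 1.09 (standard error 0.221, adjusted p = 0.0497 from limma), a call kept under 4 of 10 alternative fits. PRSS21, testisin, the most expressed gene of the list, was at 159.17 and 181.35 FPKM in WT and at 176.31 and 143.77 FPKM in ZCCHC4 KO1, with overlapping groups. HTRA2, the mitochondrial relative of HTRA1, also overlapped, with 27.64 and 31.88 FPKM in WT and 34.86 and 28.36 FPKM in ZCCHC4 KO1. HTRA3, named after its values were seen, went against HTRA1, with 2.02 and 1.71 FPKM in WT and 3.95 and 3.73 FPKM in ZCCHC4 KO1 and a log2 difference of 0.76 that was not called (adjusted p = 0.0804 from limma).

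None of the 5 tested relatives of FURIN was called by limma, with 1 lower and 0 higher at an unadjusted p under 0.05. MBTPS1, the site-1 protease, had a log2 difference of -0.46 (standard error 0.161, adjusted p = 0.166 from limma), and PCSK7 had one of -0.01. The median over the 5 was -0.01, against -0.99 for FURIN.

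Tested genes listed as inhibitors of trypsin-like proteases, or as receptors and substrates of proteases, were called lower or not called. Of 21 inhibitors of trypsin-like proteases, 8 were tested. Of these, 2 were called lower and 0 higher, against 3.25% and 0.932% of all tested genes. At an unadjusted p under 0.05 from limma, 7 were lower and 0 higher, against 13.9% and 8.96% of all tested genes. The median log2 difference was -0.90, against -0.03 over all tested genes. This list, like the other lists of related genes, was drawn up with earlier results of these data known. Nothing further is read from its counts. SPINK6 fell by 5.86 (standard error 0.211, adjusted p = 0.000523 from limma), and SERPINE2, an inhibitor of thrombin and urokinase, fell by 1.29 (standard error 0.180, adjusted p = 0.0194 from limma), a call lost without WT replicate 1 and without WT replicate 2. SLPI, a leukocyte protease inhibitor, was at 125.16 and 142.47 FPKM in WT and at 171.59 and 131.82 FPKM in ZCCHC4 KO1, with overlapping groups, and SERPINB6 had a log2 difference of -0.48 that was not called. Of 21 receptors and substrates, 11 were tested, 1 was called lower and 0 higher (3.25% and 0.932% of all tested genes), with 4 lower and 1 higher at an unadjusted p under 0.05, and the median was -0.20. The gene called was MST1R, the receptor of macrophage-stimulating protein, which fell by 1.01 (standard error 0.192, adjusted p = 0.0422 from limma), a call kept under 3 of 10 alternative fits.

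The receptor of urokinase was expressed, while PLAU itself was near 0. This receptor gene, PLAUR, named after its values were seen, was at 40.75 and 40.25 FPKM in WT and at 22.6 and 19.03 FPKM in ZCCHC4 KO1, a log2 difference of -0.93 (standard error 0.151, adjusted p = 0.028 from limma) that missed the fold. AGRN, the substrate of neurotrypsin, was at 36.08 and 38.11 FPKM in WT and at 40.7 and 38.33 FPKM in ZCCHC4 KO1, a log2 difference of 0.09 beside that of 0.20 for PRSS12. TGFB1, a precursor cut by FURIN, overlapped between the groups, with 62.34 and 66.86 FPKM in WT and 71.64 and 59.45 FPKM in ZCCHC4 KO1. MET, the receptor of hepatocyte growth factor, had a log2 difference of -0.71 with a standard error of 0.367.

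**Figure D4:**
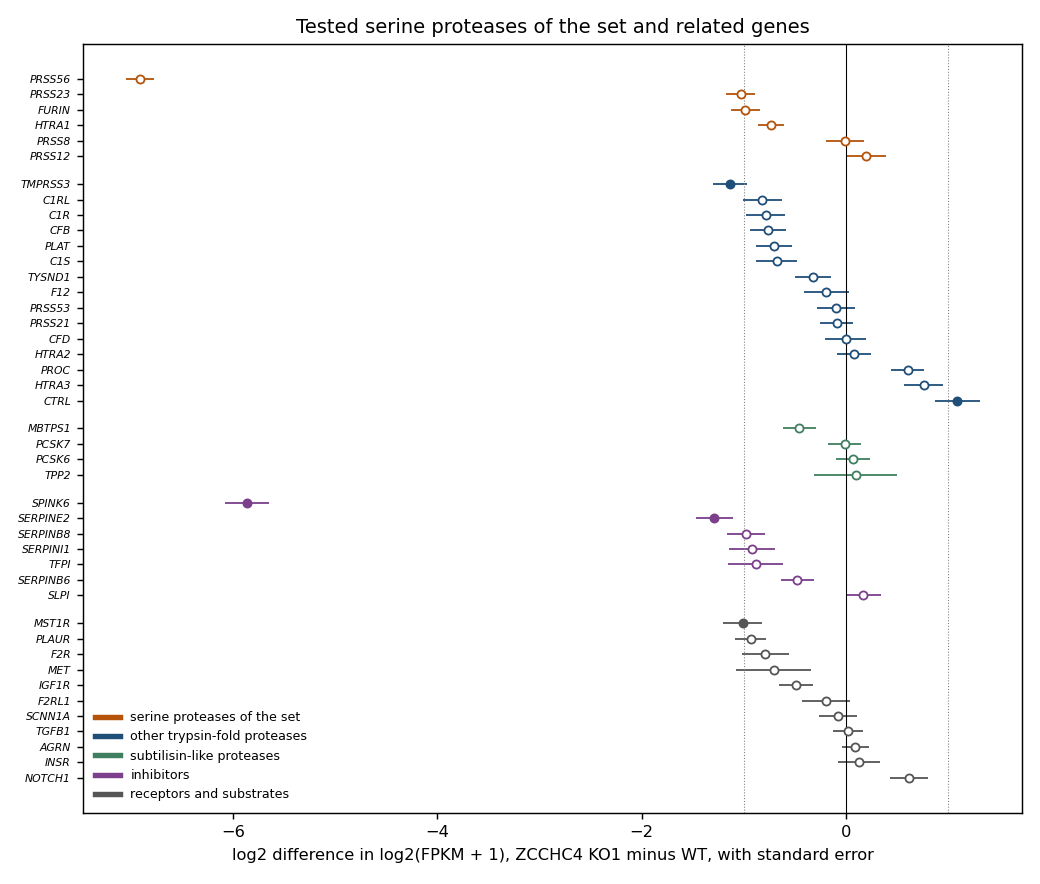
Log2 difference of ZCCHC4 KO1 minus WT with its standard error from limma for the 6 tested serine proteases of the group and, in colored blocks, tested genes of 4 related lists. Filled points of the related lists were called, open points were not, the genes of the first block are shown open without a call, and dotted lines mark log2 differences of -1 and 1. SPINK6 at -5.86 is the only related gene near PRSS56 at -6.91.

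**Figure D5:**
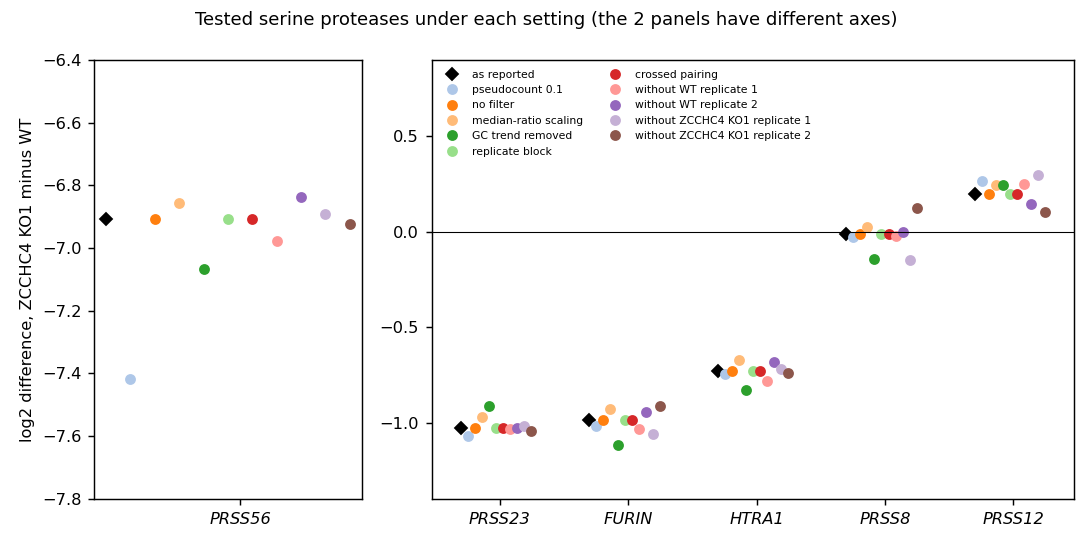
Log2 difference of ZCCHC4 KO1 minus WT for the 6 tested serine proteases as reported (black diamonds) and under 10 alternative settings (colored points), with PRSS56 on an axis of its own. The points for no filter, the replicate block and the crossed pairing repeat the reported value by design. PRSS56 stays between -7.42 and -6.84, PRSS23, FURIN and HTRA1 stay below 0, and PRSS8 lies on both sides of 0, from -0.15 to 0.12.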

How the data were processed

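RNA from 2 WT and 2 ZCCHC4 KO1 libraries of HepG2 cells was sequenced. The authors mapped the reads with Bowtie2 (GRCh38), quantified genes by RSEM and deposited the FPKM to 2 decimals. Versions, read filters and annotation are not given in the sources used here, and the labels and the study's methods name different sequencing platforms. Symbols were found in RefSeq (GRCh38.p14) for 16384 of 16658 genes. Genes at an FPKM of at least 1 in at least 2 libraries were fitted on the scale of log2(FPKM + 1) by limma (version 3.58.1, R 4.3.3, lmFit, eBayes with a trend, Benjamini-Hochberg adjustment over 10726 genes), and the fit was checked on simulated data. GC content came from GENCODE v44 canonical transcripts and covered 98.4% of tested genes. FPKM is no count, so no count model was used, and the precision rests on 2 libraries per group. The study's FDR of 0.001 was tried as an alternative.

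The genes described and all lists were chosen with earlier results of these data known. Named are ZCCHC4, the 10 proteases, up to 6 called genes and the 3 most expressed of each related list, the tested neighbors of PRSS56 and the 5 genes most like it. Some genes of the related lists are counted but not reported by name. Tried as alternatives were no filter, a pseudocount of 0.1, median-ratio scaling, removal of the GC trend (natural spline, 4 degrees of freedom), the replicate number as a block, the fold of 2 alone and each library left out in turn. A crossed pairing was chosen after seeing the data.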

Additional observations from a re-analysis of the deposited data

How the results depend on the processing

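PRSS56, PRSS23, FURIN, HTRA1 and PRSS12 kept the sign of their log2 difference under all 10 alternative fits. No filter, the replicate block and the crossed pairing leave the log2 difference unchanged by design. Only the other fits could move it. PRSS8 kept its sign under 8 of the 10 fits, with 0.02 under median-ratio scaling and 0.12 without ZCCHC4 KO1 replicate 2. Called lower among the 6 tested proteases were from 1 to 3 genes over these fits at an adjusted p under 0.05.

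Over all tested genes, 100 higher and 349 lower became 50 and 181 with no filter, and 2 and 6 at an adjusted p under 0.001. Leaving out 1 library gave 91 to 151 higher and 265 to 550 lower, the highest of both without ZCCHC4 KO1 replicate 2. A library left alone in its group is taken to vary like the other group. Of other trypsin-fold proteases, 1 higher became 0 with no filter, 0 with a pseudocount of 0.1, 0 at 0.001 and 0 with the replicate block, and 1 lower became 0 at 0.001. Leaving out 1 library gave 0 to 1 in each direction, TMPRSS3 being lost without WT replicate 1 and without WT replicate 2, and CTRL without either of these or ZCCHC4 KO1 replicate 1. Of the inhibitors, 2 lower became 1 at 0.001 and 1 to 5 when a library was left out, the lowest being the fit without WT replicate 1 and the highest that without ZCCHC4 KO1 replicate 2. SERPINE2 was also lost without WT replicate 2, where SERPINI1 was newly called. Of receptors and substrates, 1 lower became 0 with no filter, 0 with median-ratio scaling, 0 with the replicate block, 0 at 0.001 and 2 with the GC trend removed. MST1R lost its call whichever library was left out. PLAUR was newly called without ZCCHC4 KO1 replicate 1 and MET without ZCCHC4 KO1 replicate 2. For all of these, the cause was not tested.

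The replicate block gave 90 higher and 319 lower. Nothing in the labels pairs libraries beyond a shared number, and replicate 2 minus replicate 1 in WT and in ZCCHC4 KO1 correlated across genes at a Pearson value of -0.787. A crossed pairing, tried after the data had been seen, gave 116 higher and 412 lower.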
